A study of Mus musculus with 5 samples.

Results

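Antibody that coats a particle is read on a macrophage by Fc receptors, and the transcripts of 8 genes of this system were followed here in peritoneal macrophages of wild-type and Nrp1 (neuropilin 1) knockout mice. The 8 were picked by symbol: the receptors for immunoglobulin G Fcgr1, Fcgr2b, Fcgr3 and Fcgr4, the neonatal Fc receptor gene Fcgrt, the signalling adaptors Fcer1g and Tyrobp, and the kinase Syk. All 8 symbols had 1 row each among the 38463 gene symbols of the expression table, and all 8 were among the 12214 genes tested, those with at least 1 FPKM (fragments per kilobase of transcript, scaled to the mapped fragments of the library) in at least 2 libraries. The wild-type group had 3 libraries from mice labelled C7/BL6. The knockout group had 2 libraries from mice labelled LysMCre-Nrp1fl/fl, genotype Nrp1-/-, in which Cre recombinase driven from the lysozyme M locus removes floxed Nrp1 in myeloid cells. Both groups were cultured peritoneal macrophages in serum-supplemented medium. The labels give no age or sex, no Cre or floxed allele for the wild-type group, and no word on whether libraries came from separate animals or pools, so the spread behind each p-value is that of these 5 libraries and may be technical.

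Activating Fc gamma receptors have little signalling capacity of their own. They assemble with a dimer of the Fcer1g product, the common gamma chain, whose cytoplasmic tail carries an immunoreceptor tyrosine-based activation motif (ITAM). When antibody clusters the receptors, Src-family kinases phosphorylate the tyrosines of that motif and Syk docks on them, which sets off phagocytosis, the oxidative burst and cytokine release. Tyrobp encodes DAP12, a related ITAM adaptor used by TREM, SIRP-beta and other myeloid receptors. Fcgr2b is the one inhibitory receptor of the family and carries an inhibitory motif (ITIM) that recruits phosphatases such as the one encoded by Inpp5d.

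The coding stretches of these motifs are shown because the adaptors are known to signal through the first pair and the inhibitory receptor through the last. They were read from the GENCODE M21 transcripts (GRCm38, the build of the mm10 alignment), 5′ to 3′ on the coding strand, with the tyrosine codons in capitals. The Fcer1g motif covers codons 65 to 79 of 86 (chr1:171229889-171230072, minus strand) and the Tyrobp motif codons 92 to 106 of 114 (chr7:30415670-30417382, plus strand). Both are interrupted by an intron in the genome. The Fcgr2b motif covers codons 317 to 322 of 340 (chr1:170961071-170961088, minus strand).
Fcer1g ITAM: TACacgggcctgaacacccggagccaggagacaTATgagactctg
Tyrobp ITAM: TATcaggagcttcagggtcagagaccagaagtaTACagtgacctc
Fcgr2b ITIM: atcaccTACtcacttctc
The 2 adaptor motifs have the same length of 45 bases and the same spacing of their 2 tyrosine codons, while the inhibitory motif has 1 tyrosine codon in 18 bases. The loose residue pattern of an ITIM also matched elsewhere in the members, 3 times in Fcgr1 and once each in Fcgr4, Fcgrt, Fcer1g and Tyrobp, so the pattern alone does not mark the inhibitory receptor.

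The genes of 4 of the 8 members lie together. Fcgr2b (chromosome 1, 170958617 to 170976547), Fcgr4 (171018920 to 171029761), Fcgr3 (171051174 to 171064935) and Fcer1g (171229572 to 171234365) lie within 276 kb of GRCm38. Fcgr1 lies on chromosome 3 at 96282909 to 96293969. Tyrobp and Fcgrt lie on chromosome 7 at 30413760 to 30417585 and 45092990 to 45103851, and Syk on chromosome 13 at 52583173 to 52648792. Receptor genes in the cluster are also related in sequence, which bears on how reads are assigned. The coding sequences of Fcgr2b and Fcgr3 were 83.9% identical over 784 aligned bases, with a longest shared run of 129 bases, and 12.8% of the 50-base stretches of the Fcgr3 transcript also occurred in Fcgr2b transcripts. Reads from those stretches can be split between the genes, so their separate values are uncertain to that extent. Fcgr4 shared no 50-base stretch with Fcgr2b or Fcgr3. Fcgr2b and Fcgrt each overlap an annotated antisense gene (Gm38204 and Gm45669). Its reads cannot be told apart from theirs unless counting used strand, which is not given in the sources used here. On their own strand, Fcgr3 overlaps the microRNA gene Mir6546 and Fcgr4 the small nuclear RNA gene Gm26110, which strand cannot separate.

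Windows around the transcription start are shown for the 4 Fc gamma receptors because their levels differ most within the family. RefSeq windows on GRCm38.p6, from 250 bases before to 50 after the start, were found for 7 of the 8 members. The capitals mark the letters GAGGAA, the core recognised by the myeloid factor PU.1, or their reverse complement.
Fcgr1 (chr3:96293920-96294219, minus strand): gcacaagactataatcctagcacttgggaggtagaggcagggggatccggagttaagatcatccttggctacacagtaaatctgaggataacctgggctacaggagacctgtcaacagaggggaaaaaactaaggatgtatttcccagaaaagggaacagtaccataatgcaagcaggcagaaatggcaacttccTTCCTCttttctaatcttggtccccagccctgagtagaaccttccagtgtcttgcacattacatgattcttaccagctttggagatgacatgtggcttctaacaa
Fcgr3 (chr1:171059354-171059653, minus strand): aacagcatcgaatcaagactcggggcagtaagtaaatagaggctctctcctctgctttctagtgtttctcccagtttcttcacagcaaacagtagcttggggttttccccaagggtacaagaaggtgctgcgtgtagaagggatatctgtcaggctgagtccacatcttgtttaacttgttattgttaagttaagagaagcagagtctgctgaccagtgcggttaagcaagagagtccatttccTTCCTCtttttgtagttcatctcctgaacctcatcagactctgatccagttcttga
Fcgr4 (chr1:171018676-171018975, plus strand): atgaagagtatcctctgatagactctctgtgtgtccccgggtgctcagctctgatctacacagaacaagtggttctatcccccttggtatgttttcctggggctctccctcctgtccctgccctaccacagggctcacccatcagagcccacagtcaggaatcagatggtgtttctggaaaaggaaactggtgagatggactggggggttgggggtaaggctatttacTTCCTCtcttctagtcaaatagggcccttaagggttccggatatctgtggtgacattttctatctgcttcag
Fcgr2b (chr1:170976022-170976321, minus strand): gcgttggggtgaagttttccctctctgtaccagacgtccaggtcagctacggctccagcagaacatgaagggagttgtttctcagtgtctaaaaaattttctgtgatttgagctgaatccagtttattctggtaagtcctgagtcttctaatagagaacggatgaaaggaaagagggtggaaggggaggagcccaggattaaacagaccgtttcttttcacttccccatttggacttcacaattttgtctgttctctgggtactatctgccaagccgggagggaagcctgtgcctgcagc
The match began 55 bases before the start in Fcgr1, 6 bases before it in Fcgr3 and 22 bases before it in Fcgr4, on the reverse strand in each. Fcgr2b had no match in its window. All patterns were searched on both strands. Among members with a window, 4 of 7 held a match in at least one window (the fourth is Syk), against 31.3% of all 27025 genes with windows. The letters TTCNNNGAA, a STAT binding pattern, matched in Fcgr1 alone among the members, 109 bases before the start (9.55% of all genes). The pattern bound by interferon regulatory factors, GAAA repeated after a gap of 2 free bases, matched in Fcgr4 alone, 73 bases before it (3.99% of all genes). None of these overlapped a GAGGAA match. These are matches of letters only.

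The libraries differed in ways the genotype does not describe. FPKM summed to 539100 to 629100 per library, and the read depth is unknown. The targeted gene Nrp1 had 24.3, 19.0 and 11.5 FPKM in wild-type replicates 1, 2 and 3 and 7.63 and 7.70 in knockout replicates 1 and 2, so both knockout libraries were below every wild-type library; the log2 fold change of -1.09 ± 0.32 (SE) did not pass (limma adjusted p = 0.93). The defining macrophage markers Emr1, Csf1r, Cd14, Cd68, Mertk, Gata6, Itgam and Lyz1 were all above 1 FPKM in every library. Their sum was 8470 and 8640 FPKM in the knockout libraries and 5790 to 6380 in wild-type. That gap lay in Lyz1, which had 4680 and 5154 against 832 to 2361 and has a near-identical copy in Lyz2. Mertk was also higher in knockout, with 28.8 and 27.8 FPKM against 17.2 to 25.8. The groups overlapped for Emr1, Csf1r, Cd14, Cd68, Gata6 and Itgam. In bulk RNA, fewer cells of a type and less RNA per cell cannot be told apart. Of other Fc receptor-bearing cells, the 8 B cell markers summed to 1.62 to 3.37 FPKM, the 7 natural killer cell markers to 0.184 to 0.477, with Ncr1, Gzma, Klre1 and Prf1 at 0 throughout, and the 8 neutrophil markers to 36 to 100 FPKM, nearly all from S100a8 (22.6 to 72.4) and Mmp8 (11.1 to 40.2), with Ly6g and Retnlg at 0. Wild-type replicate 3 stood apart. Its Pearson's r with the rest across tested genes was 0.929 to 0.938, against 0.966 to 0.972 among the other 4. Its 9 mast cell markers, of which 5 reached 1 FPKM in every library, summed to 191 FPKM, against 20.1 to 39.8 in the others. It was also higher than the others for short and lower for long transcripts. Its log2(FPKM + 1) less the mean of the other libraries had a median of 0.34 for the 473 genes with transcripts of up to 1000 bases and of -0.63 for the 2089 genes over 4000 bases, and Spearman's rho with transcript length was -0.492 across 7019 genes, which are not independent replicates. On the same measure rho was -0.007 and 0.374 in wild-type replicates 1 and 2, and 0.568 and 0.287 in knockout replicates 1 and 2. The means behind these 4 values include wild-type replicate 3. With that library left out of the mean, rho was -0.344 to 0.368 in the other 4 libraries.

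The 8 transcripts spanned a wide range and kept the same order in all 5 libraries. On the FPKM scale, which divides by transcript length, the order from high to low was Tyrobp, Fcer1g, Fcgr3, Fcgr2b, Syk, Fcgrt, Fcgr1 and Fcgr4. Differences between libraries still varied with transcript length, and Tyrobp and Fcer1g have the shortest transcripts of the members. For each of the 7 neighbouring pairs the lowest value of the higher gene over all libraries was above the highest value of the lower gene. The narrowest gaps were between Fcer1g and Fcgr3 (904 against 736 FPKM), between Syk and Fcgrt (61.8 against 47.8 FPKM) and between Fcgr1 and Fcgr4 (8.34 against 6.70 FPKM). The position of Fcgr3 above Fcgr2b carries the uncertainty of their shared sequence.

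**Figure D1:**
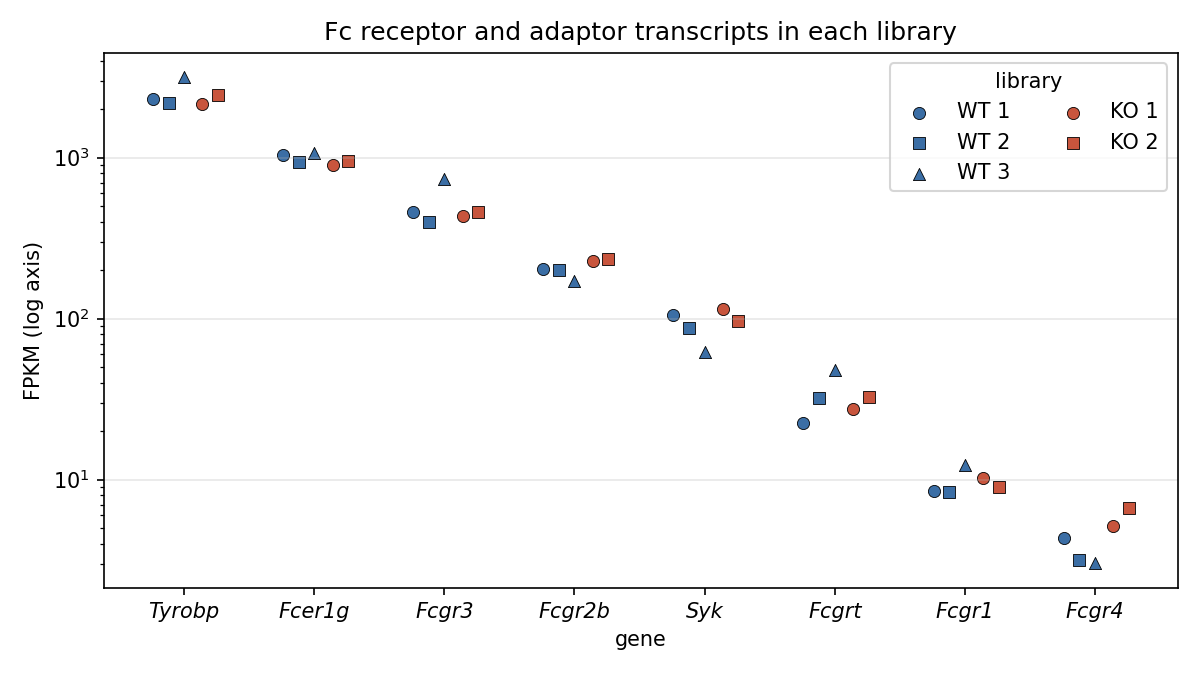
FPKM of the 8 genes on a log axis, with 1 point per library (blue wild-type, red knockout). The genes run from Tyrobp, at 2157 to 3157 FPKM, down to Fcgr4, at 3.02 to 6.70, in bands that do not overlap.

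The ITAM adaptors were among the most abundant messages of the cell. Tyrobp had 2308, 2175 and 3157 FPKM in wild-type replicates 1, 2 and 3, and 2157 and 2457 in knockout replicates 1 and 2. It ranked 11th to 19th from the top among the genes with at least 1 FPKM and made up 0.392% to 0.502% of a library's FPKM. Wild-type replicate 3 was the highest, and the other 4 libraries overlapped without regard to genotype. Fcer1g, the common gamma chain, had 1032, 937 and 1069 FPKM among wild-type libraries, against 904 and 955 in knockout. It was the steadiest member among the wild-type libraries, with a highest value 1.14 times the lowest. Knockout replicate 1 was below the wild-type range and knockout replicate 2 within it, so the groups overlapped. The log2 fold change (knockout minus wild-type, on the log2(FPKM + 1) scale, as for all below) was -0.13 ± 0.32 (SE) for Tyrobp and -0.12 ± 0.25 for Fcer1g, and neither passed (limma adjusted p = 0.94 and 0.93). Mast cells also express Fcer1g, and wild-type replicate 3 had the highest values of both Fcer1g and the mast cell markers. The defining Fcer1a was at 0.113 to 0.515 FPKM, with its highest value in wild-type replicate 3 as well. The part of mast cells in the Fcer1g values was not tested.

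Syk, the tyrosine kinase that docks on both adaptors, had 105, 87.2 and 61.8 FPKM among wild-type libraries, against 115 and 96.7 in knockout. The lowest value was that of wild-type replicate 3, and the groups overlapped. The log2 fold change was 0.35 ± 0.27 (SE; limma adjusted p = 0.93), and 0.14 without wild-type replicate 3. Syk has the longest transcript of the members (5363 bases) and Tyrobp the shortest (564 bases), and in that library Syk was the lowest member relative to the other libraries while Tyrobp was above them. Within a library, Syk amounted to 0.0314, 0.0280 and 0.0146 of the summed FPKM of the adaptors among wild-type libraries, against 0.0375 and 0.0283 in knockout.

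Fcgr3, the low-affinity activating receptor, was the most abundant Fc gamma receptor. It had 462, 399 and 736 FPKM among wild-type libraries, against 436 and 457 in knockout. Both knockout values lay between those of wild-type replicates 1 and 2, and replicate 3 was higher than all. The log2 fold change was -0.20 ± 0.32 (SE; limma adjusted p = 0.93) and 0.06 without wild-type replicate 3, so its sign rests on that library.

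Fcgr2b, the inhibitory receptor, was higher in both knockout libraries than in any wild-type library. It had 202, 202 and 170 FPKM among wild-type libraries, against 227 and 234 in knockout. The knockout mean was 1.21 times the wild-type mean. The log2 fold change was 0.27 ± 0.21 (SE; 95% interval -0.23 to 0.77) and did not pass (limma adjusted p = 0.93). The exact permutation test gave 0.2 (two-sided), the smallest p that 3 against 2 libraries allow. Without wild-type replicate 3, whose value was the lowest, the log2 fold change was 0.19.

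Fcgr1 and Fcgr4, the high-affinity receptor and the receptor for IgG2 subclasses, were the scarce ones. Fcgr1 had 8.46, 8.34 and 12.3 FPKM among wild-type libraries, against 10.2 and 8.94 in knockout. The groups overlapped, and the log2 fold change was -0.0032 ± 0.25 (SE; 95% interval -0.60 to 0.59; limma adjusted p = 1.0), or 0.17 without wild-type replicate 3. Both genes are known as targets of interferon signalling.

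Fcgr4 had the largest fold change of the members. It had 4.33, 3.17 and 3.02 FPKM among wild-type libraries, against 5.13 and 6.70 in knockout, so that every knockout value was above every wild-type value. Its knockout mean was 1.69 times the wild-type mean. The log2 fold change was 0.62 ± 0.25 (SE; 95% interval 0.02 to 1.22), or 0.51 above the median over tested genes. It did not pass (limma adjusted p = 0.93; unadjusted p = 0.043; two-sided exact permutation p = 0.2). It was the member with an unadjusted p under 0.05, where 1.82% of tested genes had one. The fold change was 0.46 to 0.78 when single libraries were left out, with 0.54 without wild-type replicate 3. Monocytes also express Fcgr4. The 6 genes listed as monocyte markers summed to 28.5, 17.4 and 24 FPKM among wild-type libraries, against 35.0 and 39.1 in knockout. These sums did not overlap, but single markers differed. Ly6c2 (18.3, 9.13 and 13.8 FPKM against 20.4 and 26.25) and Cd177 (2.26, 1.87 and 2.92 against 6.70 and 4.58) were apart by group. Cd177 is not particular to monocytes. The groups overlapped for Ccr2, Plac8, Ace and Treml4. Of the 6 markers 4 reached 1 FPKM in every library and none was at 0 in all libraries. The part of monocytes in the Fcgr4 values was not tested.

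Fcgrt, the neonatal Fc receptor, carries IgG through endosomes and protects it from degradation rather than signalling through an ITAM. It had 22.6, 32.3 and 47.8 FPKM among wild-type libraries, against 27.5 and 32.5 in knockout. The wild-type values varied 2.12-fold, the widest wild-type spread of the 8, and the knockout values fell inside that spread. The log2 fold change was -0.13 ± 0.32 (SE; limma adjusted p = 0.94) and 0.14 without wild-type replicate 3. Its partner B2m, the light chain it shares with class I molecules, had 1960, 1817 and 1857 FPKM among wild-type libraries, against 2063 and 2680 in knockout, without overlap, and did not pass either (limma adjusted p = 0.93).

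Counted together, 0 of the 8 members were called higher and 0 lower (limma adjusted p under 0.05), where 0.0409% of tested genes were called higher and 0.0164% lower. Without overlap between the groups, 2 of 8 were higher in knockout (Fcgr2b and Fcgr4) and 0 lower, where 13.9% of tested genes were higher and 6.95% lower. Without wild-type replicate 3 the members were 3 (Fcgr1 in addition) and 0, against 17.2% and 15.2% of the 12133 genes then tested. Without wild-type replicate 1 or 2 the higher members were 3 and 2 (23.2% and 29.9% of tested genes) and the lower 0 and 2 (12.3% and 13.8%). Without knockout replicate 1 or 2 the higher were 2 and 3 (27.7% and 25.9%) and the lower 0 and 2 (15.3% and 13.7%). The median log2 fold change of the members was -0.06, and that of all tested genes was 0.11.

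**Figure D2:**
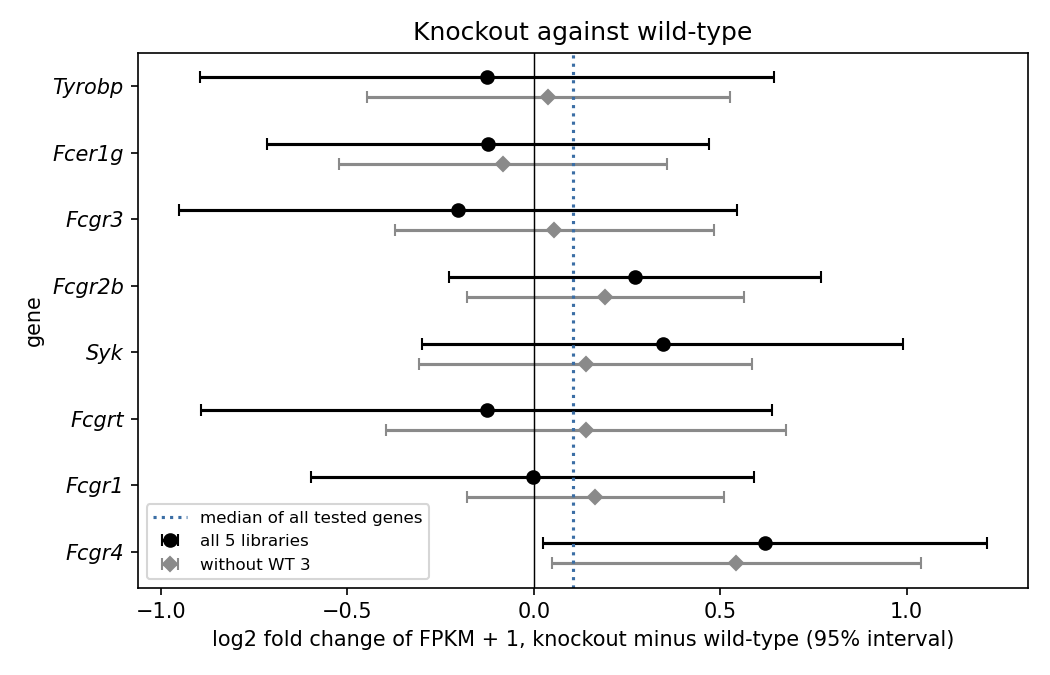
Log2 fold change of FPKM + 1 (knockout minus wild-type) with 95% intervals from limma, for all 5 libraries (black) and without wild-type replicate 3 (grey). The interval of Fcgr4 lies above 0 before adjustment in both; the points of Tyrobp, Fcgr3, Fcgrt and Fcgr1 change side when that library is left out.

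All 8 members had their highest or lowest value in wild-type replicate 3, which was the highest library for 5 (Tyrobp, Fcer1g, Fcgr3, Fcgrt and Fcgr1) and the lowest for 3 (Syk, Fcgr2b and Fcgr4). Among all tested genes it was the highest for 21.4% and the lowest for 54.2%. Its log2(FPKM + 1) less the mean of the other libraries was 0.75 for Fcgr3, 0.73 for Fcgrt and 0.47 for Tyrobp. It was -0.69 for Syk, -0.50 for Fcgr4 and -0.34 for Fcgr2b. The median over all tested genes was -0.30 in this library, so the value of Fcgr2b was near that of a typical gene. The transcripts of Syk and Fcgr2b are the longest of the 8 and those of Tyrobp and Fcer1g the shortest. Fcgr4, at 1256 bases and lower in this library, stood against that order. Fcer1g, at 674 bases, was higher by 0.16, which was less than the 0.42 of the longer Fcgr1, at 2589 bases. The part of transcript length in the members' values was not tested.

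**Figure D3:**
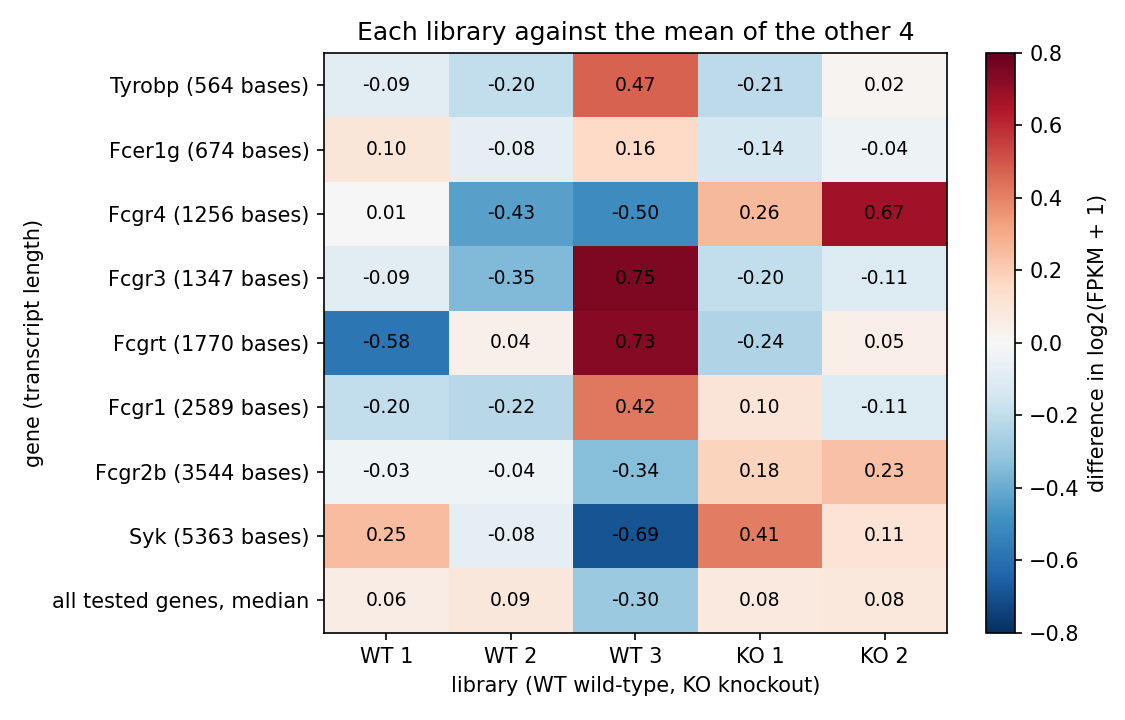
Difference in log2(FPKM + 1) between each library (columns) and the mean of the other 4, for the 8 genes ordered by transcript length and for the median of all tested genes. Wild-type replicate 3 holds the strongest colours in 7 of the 8 gene rows, and for Fcgr4 knockout replicate 2 does, at 0.67.

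The make-up of the Fc gamma receptor transcripts was close in 4 libraries. Fcgr3 accounted for 64.3% to 68.3% of their summed FPKM in these and for 79.9% in wild-type replicate 3, and Fcgr2b for 29.8% to 33.5% and for 18.5%. Fcgr1 held 1.25% to 1.5% and Fcgr4 0.328% to 0.948% over all libraries. Activating transcripts (Fcgr1, Fcgr3 and Fcgr4 summed) exceeded the inhibitory Fcgr2b 2.35, 2.04 and 4.41 times among wild-type libraries, against 1.99 and 2.02 times in knockout. The knockout ratios were just below that of wild-type replicate 2, and replicate 3 was far above the rest. The log2 difference of the group ratios, knockout minus wild-type, was -0.47, and -0.13 without wild-type replicate 3. Fcgr2b and Fcgr3 share sequence, so the ratio is a description only.

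**Figure D4:**
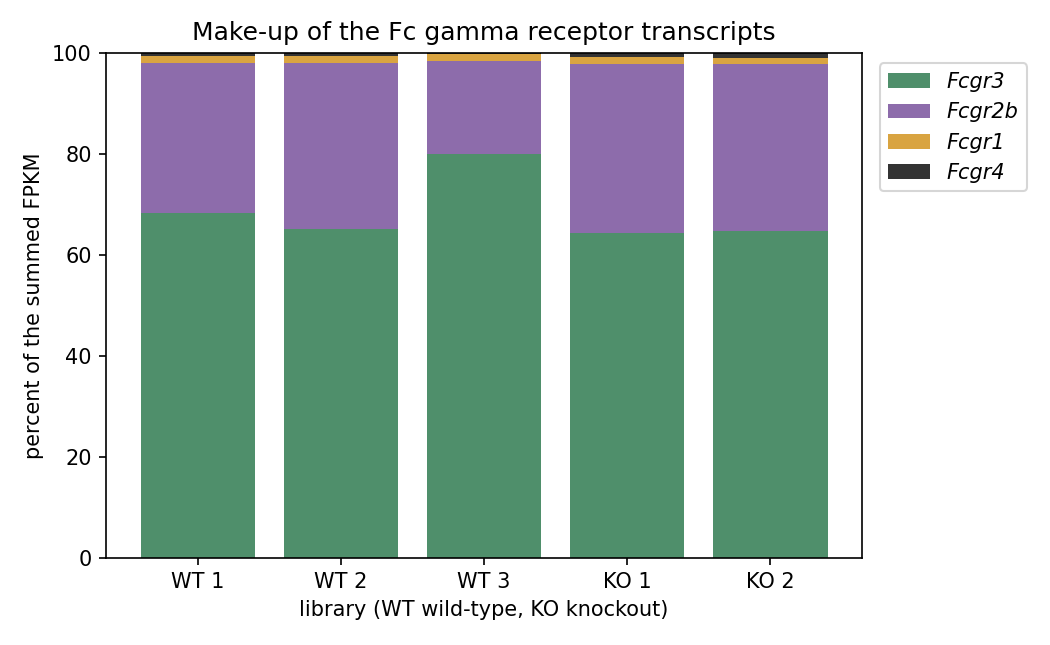
Share of each Fc gamma receptor gene in the summed FPKM of the 4, in percent, for each library. Fcgr3 and Fcgr2b make up nearly all of every bar, and wild-type replicate 3 differs from the rest with 79.9% Fcgr3.

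The transcript of the common gamma chain exceeded the sum of the 3 activating Fc gamma receptor transcripts in every library. Its other partners, such as the lectin receptors, are not in that sum. Fcer1g FPKM was 2.17, 2.28 and 1.42 times the summed activating receptors among wild-type libraries, against 2.00 and 2.02 times in knockout. Tyrobp was 2.24, 2.32 and 2.95 times Fcer1g among wild-type libraries, against 2.39 and 2.57 times in knockout. The groups overlapped in both ratios, and the highest Tyrobp ratio and the lowest Fcer1g ratio were those of wild-type replicate 3.

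Other genes of the pathway were described from 6 lists of 114 genes, of which 110 were in the table and 89 were tested. In these lists 0 genes were called higher and 0 lower, 58 had a positive and 31 a negative log2 fold change, and the median was 0.14, beside 0.11 for all tested genes. Named below are the genes of each list with the smallest unadjusted p, up to 3 a list, all at a limma adjusted p of 0.93. Of other Fc receptors, 3 of 14 were tested, with 0 called and a median of 0.17. The IgE receptor genes Fcer1a and Ms4a2, which mast cells use, stayed under 0.52 FPKM in every library. Fcrls, an Fc receptor-like gene, had 5.52, 6.56 and 14.7 FPKM among wild-type libraries, against 4.45 and 3.23 in knockout, without overlap. Trim21, the antibody receptor of the cytosol, had 2.23, 3.12 and 1.53 against 3.11 and 2.75, and Fcrlb 1.22, 1.09 and 0.409 against 1.52 and 0.757, and both overlapped.

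The list for receptors that pair with Fcer1g or Tyrobp also held the adaptor gene Hcst and the receptor kinase gene Csf1r. Of its genes, 19 of 28 were tested, with 0 called, 14 positive and 5 negative and a median of 0.10. Groups did not overlap for 7 higher and 2 lower genes of the 19, where 13.9% of all tested genes were higher and 6.95% lower in this way. Sirpb1c, a SIRP-beta gene that signals through DAP12, had 13, 9.27 and 10.8 FPKM among wild-type libraries, against 18 and 20.9 in knockout (unadjusted p = 0.013). Lilra5 had 0.896, 1.14 and 0.736 against 1.52 and 2.12. Cd300ld, which uses the gamma chain, had 85.0, 83.9 and 75.0 against 64.0 and 60.5. In each of these 3 the groups were apart. The SIRP-beta and Lilra genes have near-identical relatives between which reads can be split. Trem2, the best known partner of DAP12 on tissue macrophages and chosen here after its values were seen, had 763, 593 and 785 FPKM against 502 and 562. Both of its knockout values lay below the wild-type range (log2 fold change -0.41 ± 0.26 SE, limma adjusted p = 0.93).

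Of the kinases, 13 of 15 were tested, with 0 called and a median of 0.19. Pik3r5, a regulatory subunit of phosphoinositide 3-kinase gamma, had 59.2, 68.9 and 43.8 FPKM among wild-type libraries, against 79.5 and 70.5 in knockout. Pik3r1 had 4.26, 5.54 and 1.92 against 5.10 and 5.53. Lyn, the Src-family kinase that phosphorylates both ITAM and ITIM tyrosines, had 52.0, 63.6 and 24.8 against 53.0 and 65.1. Pik3r5 alone of these was without overlap, and wild-type replicate 3 was the lowest library for all 3.

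Of the adaptors and effectors downstream of Syk, 24 of 25 were tested, with 0 called, 16 positive and 8 negative and a median of 0.14. Cbl, a ubiquitin ligase that limits signalling, had 12.1, 13.3 and 6.15 FPKM among wild-type libraries, against 19.7 and 15.1 in knockout. Malt1, of the complex that links Card9 to NF-kB, had 7.30, 10.4 and 3.20 against 8.81 and 10.6. The docking protein gene Gab2 had 16, 18.5 and 20.8 against 21.6 and 21.9. The groups did not overlap for Cbl and Gab2 and overlapped for Malt1.

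Inhibitory receptors and phosphatases gave 23 tested of 24, with 0 called, 12 positive and 11 negative and a median of 0.02. The Siglec gene Cd33 had 19.2, 16.2 and 7.98 FPKM among wild-type libraries, against 23.8 and 25.2 in knockout. Pag1, which anchors the kinase Csk, had 4.64, 6.85 and 3.56 against 8.41 and 6.92. Ptpn6, which encodes the phosphatase SHP-1, had 285, 256 and 305 against 261 and 159. Cd33 and Pag1 were apart by group, and the Ptpn6 groups overlapped through knockout replicate 1. Inpp5d, the phosphatase that the Fcgr2b motif recruits, had 116, 135 and 89.5 FPKM against 174 and 129, which overlapped.

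The partner and trafficking genes of the neonatal receptor gave 7 tested of 8, with 0 called and a median of 0.19. The sorting nexin gene Snx3 had 151, 169 and 183 FPKM among wild-type libraries, against 143 and 140 in knockout, without overlap. The endosome tether gene Eea1 had 5.51, 6.03 and 2.97 against 5.68 and 6.96, with overlap.

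**Figure D5:**
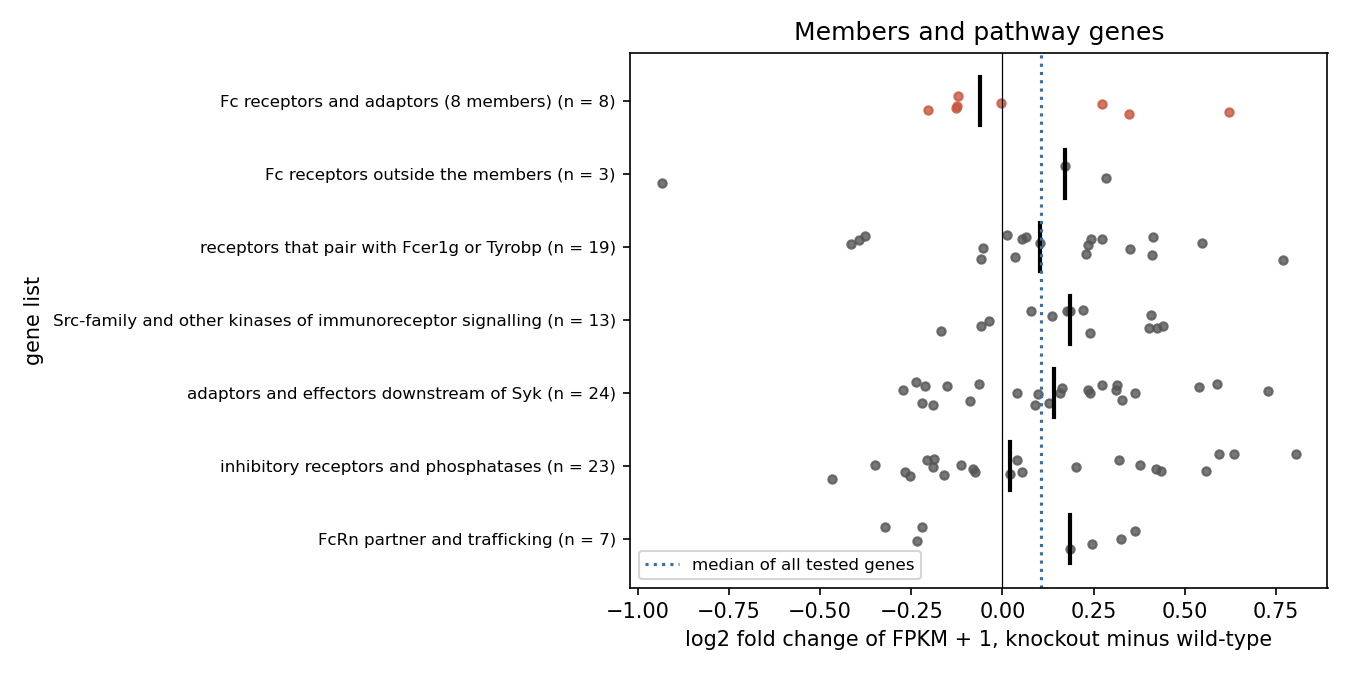
Log2 fold change of FPKM + 1 (knockout minus wild-type) of the 8 members (red) and of the tested genes of each pathway list (grey), 1 point per gene, with the list's median as a black bar. The list medians lie between 0.02 and 0.19, near the dotted median of all tested genes, and the members spread from -0.20 to 0.62.

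Genes of like pattern were sought among 6913 genes with a mean of at least 5 FPKM, as the smallest Euclidean distance between log2(FPKM + 1) values centred over the 5 libraries. The nearest were Galt to Fcgr1 (distance 0.065), Rnf146 to Fcgr2b (0.030), Alox5ap to Fcgr3 (0.042), Fam110a to Fcgrt (0.069), Mcat to Tyrobp (0.071) and Gtf3c1 to Syk (0.050). Alox5ap, which encodes the activating protein of 5-lipoxygenase, followed Fcgr3 with 512, 438, 831, 496 and 515 FPKM in wild-type replicates 1 to 3 and knockout replicates 1 and 2. To Fcgr4 the nearest 3 were Cisd1 (0.198), Sirpb1c (0.259) and Pnpla7 (0.264), and to Fcer1g they were Pgk1 (0.057), Ogfod2 (0.065) and Tcf3 (0.072). Among the members the closest pair was Fcgr3 and Tyrobp (0.273) and the farthest Fcgrt and Syk (1.42). With 5 libraries in 2 groups, and all members extreme in wild-type replicate 3, these distances are descriptions only.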

How the data were processed

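Poly(A) RNA from 3 wild-type and 2 knockout libraries was sequenced on an Ion Torrent system, per the labels' protocols, and processed by the authors in Torrent Suite 4.4 (plugin 4.2-r7). Alignment to mm10 is recorded, and TopHat2, Bowtie2 and Cufflinks are listed with no version, per the submitters' processing notes. Gene-level FPKM were deposited, per the file headers; 17 further per-sample or averaged columns were not used. Wild-type replicate 3 had its values in another name order (hyphens counted) in 2144 of 38757 rows and was realigned; Pearson's r in the 722 expressed displaced rows went from 0.171 to 0.916. No member's row was displaced. Rows with a number for a name (27) or names differing in case only (50) were dropped, and the rows of 165 symbols were summed. The 2 groups were fitted in limma 3.58.1 (R 4.3.3) on log2(FPKM + 1), which understates changes of low genes, with the trend option; p-values were adjusted (Benjamini-Hochberg) over 12214 genes; exact permutation tests used SciPy 1.17.1. The procedure was tested on simulated data. That simulation gave each gene independent noise of equal spread in all libraries, so it does not cover a library that stands apart. Depth is unknown, so no counting interval is given. The members and lists were chosen with earlier results of these data known. Named genes are the members, Nrp1, the 3 genes per list with the smallest unadjusted p, and the genes of nearest pattern; B2m, Inpp5d, Fcer1a, Ms4a2 and Trem2 were added after their values were seen. One gene that this rule names is not reported here. Alternatives changed the pseudocount, filter, scaling, weights, trend, replicate block, row order and single libraries. Of the listed genes, Faim3 stands for Fcmr under its older symbol.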

Additional observations from a re-analysis of the deposited data

How the results depend on the processing

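In the 16 alternative settings of the fit 0 members were called in either direction, and 115 of 128 member fold changes kept their sign. The other 13 had the opposite sign, at up to 0.234 for Fcgrt, where the main fit gave -0.126. Fcgr1 went from -0.0032 to 0.0725 with libraries rescaled to equal sums, to 0.142 with library weights and to 0.165 with the replicate block, and lay between -0.0918 and 0.165 when single libraries were left out. Fcgr3 was 0.0551 with the replicate block (-0.385 to 0.0551 leaving out single libraries), Fcgrt 0.234 with library weights and 0.14 with the replicate block (-0.384 to 0.14), Tyrobp 0.0389 with the replicate block (-0.23 to 0.0389), and Fcer1g 0.066 with quantile normalization. The cause was not tested, other than that the block leaves wild-type replicate 3 without a partner and so without weight. Fcgr2b, Fcgr4 and Syk were positive in every setting.

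Members apart by group and lower numbered 0 with all libraries and 0 to 2 when single libraries were left out (2 without wild-type replicate 2 or knockout replicate 2, where 13.8% and 13.7% of tested genes were lower in this way). Over all tested genes, 5 were called higher and 2 lower; the higher count was 3 with pseudocount 0.1, 1 with no filter, 1 with a filter at 5 FPKM, 12 with library weights, 3 with the replicate block and 2 in the order as deposited, and the lower count was 0, 1, 9, 1 and 1 in the last 5 of these. Leaving out single libraries gave 0 to 7 higher and 0 to 7 lower. The sum of Fcgr1 and Fcgr4 over that of Fcgr2b and Fcgr3 gave a log2 difference of 0.312, where activating over inhibitory gave -0.465, since Fcgr3 then changes sides; the latter was -0.128 without wild-type replicate 3 and -0.685 to -0.128 over all single libraries left out. Fcrlb turned to -0.000507 with quantile normalization, to -0.0328 with library weights, to -0.0329 with the replicate block or without wild-type replicate 3 and lay between -0.0897 and 0.431 when single libraries were left out. Nrp1 passed with library weights (-1.43, limma adjusted p = 0.023; 0.023 to 1.0 over all settings). The median of all genes moved from 0.11 to 0.0027 with median-of-ratios scaling and to 0.17 with equal sums. Of 84 recomputed likeness values, chosen after the data were seen, 55 no longer named the nearest genes. Replicate numbers are shared by the titles only. Deviations of same-numbered libraries from their group means correlated at -0.0513 and -0.0084 across genes. With 2 knockout libraries these deviations mirror each other, so the values cannot decide whether libraries were paired.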
